A study of Danio rerio with 8 samples.

Results

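The genes described here are 5 transcription factors of the neural crest, foxd3, tfap2a, sox9b, pax3a and snai2, in RNA sequencing of zebrafish melanomas. Their Ensembl IDs are ENSDARG00000021032 (foxd3), ENSDARG00000059279 (tfap2a), ENSDARG00000043923 (sox9b), ENSDARG00000010192 (pax3a) and ENSDARG00000040046 (snai2). They were chosen by name and Ensembl gene ID, by a rule that uses no measured value, and are 5 of the 22416 genes listed. All 5 were listed in every tumour and passed the filter on low values described below. The tumours came from fish of the strain tp53m214K/m214k, mitfa-/-, nras G12D, and all 8 share these 3 alterations. In 5 of them the transgene was Tg(mitfa:dgat1a) and in 3 it was Tg(mitfa:egfp). dgat1a encodes diacylglycerol O-acyltransferase, an enzyme of triacylglycerol synthesis, and egfp is a fluorescent protein used as the control. Both transgenes were driven by the mitfa promoter, which is active in pigment cell precursors and melanocytes, and were delivered by miniCoopR, a vector that restores mitfa and so lets melanocytes form in mitfa mutants. Tumours were age matched and taken at 10 to 12 weeks. The labels do not say which fish or clutch each tumour came from. The p-values of the group comparison set the difference against the spread between these tumours. They treat the tumours as independent, which could not be checked.

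The neural crest is an embryonic cell population that forms at the border of the neural plate, undergoes an epithelial-mesenchymal transition and migrates to give rise to pigment cells, peripheral glia and neurons, and head cartilage. Tfap2a and Pax3 act at the neural plate border, Foxd3, Sox9 and Snai2 in the premigratory crest, and several of them act upstream of mitfa, the regulator of melanocyte fate. Melanocytes descend from the crest, and in zebrafish melanoma models crest genes are known to be active in tumours.

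Levels are given in fpm, a per-million read signal scaled between samples by the authors. It is not corrected for gene length, so levels are compared between tumours and not between genes. The libraries held 20936089 to 26865735 reads, and a floor of 3 reads lay at 0.109 to 0.138 fpm depending on the library. The library of egfp replicate 1 stood apart from the other 7. Its mean correlation with the other tumours across genes was 0.854, against 0.897 to 0.918 for the rest, and 1232 genes were listed at 0 in it, against 353 to 777. Most results that it moved by over 1.5 times are given with and without it. The transgene label was checked on ENSDARG00000103503, annotated DGAT1, which measured 2223 to 4160 fpm in dgat1a tumours and 26.5 to 75.1 fpm in egfp tumours; reads of the transgene and of the endogenous gene cannot be told apart there. The melanosome gene pmela measured 1398 to 13275 fpm in dgat1a tumours and 1433 to 2373 fpm in egfp tumours. SOX10, a crest and melanocyte factor, measured 776.3 to 1095 fpm in dgat1a tumours and 667.4 to 1116 fpm in egfp tumours. Melanocyte genes were thus read in every tumour, but not evenly. In dgat1a replicate 3 SLC24A5 was at 3.09 fpm, against 18.7 to 180.3 fpm in the other 7. TYRP1 ENSDARG00000056151 was at 84.5 fpm there, against 259.9 to 2743 fpm, while trpm1b was highest there, at 1909 fpm.

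The main comparison asked whether the crest regulators differed between dgat1a and egfp tumours. None of the 5 did at a Benjamini-Hochberg adjusted p under 0.05, and the values of the groups overlapped in all 5. The direction of difference was higher in dgat1a tumours for foxd3, sox9b and snai2 and lower for tfap2a and pax3a, and for foxd3, sox9b and tfap2a it turned when egfp replicate 1 was left out, as it did for 16.4% of the tested genes. For tfap2a it also turned with quantile normalization, at a log2 fold change of 0.06. The test was limma on log2(fpm + 0.5) over the 16853 genes averaging 1 fpm or more, of which 9, or 0.0534%, were called (0.0356% higher and 0.0178% lower in dgat1a tumours). The groups did not overlap in 10.4% of the tested genes, and 15.0% had an unadjusted p under 0.05. With so few genes called, 0 of 5 is a count near that background. In bulk tumours, fewer cells of a type and less RNA per cell cannot be told apart.

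**Figure D1:**
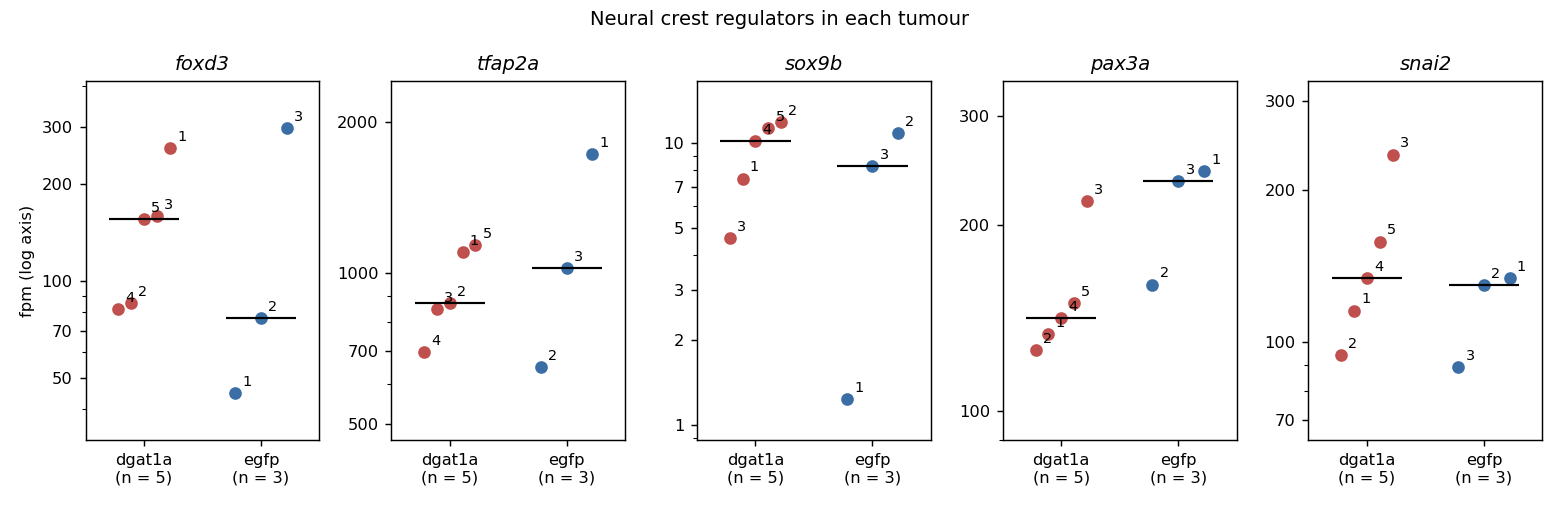
Level of each gene in each tumour in fpm on a log axis, with dgat1a tumours left and egfp tumours right; numbers are replicates and horizontal lines are group medians. The groups overlap in all 5 genes, and egfp replicate 1 is the lowest point for foxd3 and sox9b and the highest for tfap2a and pax3a.

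tfap2a encodes an AP-2 transcription factor that acts at the neural plate border and again in melanocytes, where in zebrafish its loss reduces melanophores. It measured 1100, 871.9, 848.1, 695.0 and 1140 fpm in dgat1a replicates 1 to 5, and 1729, 648.8 and 1023 fpm in egfp replicates 1 to 3. The dgat1a tumours thus all lay inside the range of the egfp tumours, which hold both the highest and the lowest value. The log2 fold change, dgat1a over egfp, was -0.19 ± 0.32 (SE; limma adjusted p = 0.788), and its 95% interval ran from 0.536-fold to 1.43-fold. Without egfp replicate 1 the log2 fold change was 0.17 (limma adjusted p = 0.888). Among dgat1a tumours tfap2a varied little, with an SD of 0.29 log2 units, where the median tested gene had 0.41.

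pax3a encodes a paired-domain factor of the neural plate border, which in zebrafish is needed for the xanthophore lineage and which also marks muscle precursors. It measured 133.4, 125.6, 218.7, 141.5 and 149.4 fpm in dgat1a replicates 1 to 5, and 243.9, 160.2 and 235.6 fpm in egfp replicates 1 to 3. In 4 of the 5 dgat1a tumours the level was below every egfp tumour, and dgat1a replicate 3 was the exception. The means were 153.7 ± 37.4 fpm in dgat1a tumours (SD, n = 5) and 213.3 ± 46.1 fpm in egfp tumours (SD, n = 3). The log2 fold change was -0.48 ± 0.24 (SE), which had the smallest p-value of the 5 genes and did not pass (limma unadjusted p = 0.0756, adjusted p = 0.376). Its 95% interval ran from 0.496-fold to 1.04-fold. Its sign was negative without any 1 of the tumours, with log2 fold changes of -0.67 to -0.37, and 20.1% of all tested genes had a smaller p-value.

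foxd3 encodes a forkhead factor of the premigratory crest, which in zebrafish is known to repress mitfa in cells that take other fates. It measured 257.5, 85.4, 158.5, 81.9 and 155.6 fpm in dgat1a replicates 1 to 5, and 44.8, 76.6 and 297.0 fpm in egfp replicates 1 to 3. The highest and the lowest of the 8 tumours were both egfp tumours, 6.62-fold apart, and the dgat1a tumours spanned 3.14-fold between them. The log2 fold change was 0.42 ± 0.59 (SE; limma adjusted p = 0.753), and the 95% interval was wide, at 0.530-fold to 3.36-fold. The arithmetic means were closer, at 147.8 ± 71.5 fpm in dgat1a tumours (SD, n = 5) and 139.5 ± 137.3 fpm in egfp tumours (SD, n = 3), and the edgeR quasi-likelihood test on recovered reads, which compares mean reads, gave a log2 fold change of 0.05 (adjusted p = 0.974). Without egfp replicate 1 the limma log2 fold change was -0.16 (adjusted p = 0.955), and without egfp replicate 3 it was 1.19 (limma adjusted p = 0.311).

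sox9b encodes a SOX9 factor, a regulator of crest and of cartilage. It measured 7.47, 11.8, 4.61, 10.1 and 11.3 fpm in dgat1a replicates 1 to 5, and 1.23, 10.8 and 8.30 fpm in egfp replicates 1 to 3. Apart from egfp replicate 1, which was the lowest of all 8, the egfp tumours lay within the range of the dgat1a tumours. That tumour held 28 sox9b reads, for which an exact Poisson interval, covering counting error only, was 0.820 to 1.78 fpm, so its low level was resolved at this depth. The log2 fold change was 0.71 ± 0.59 (SE; limma adjusted p = 0.580), with a 95% interval of 0.650-fold to 4.12-fold. Without egfp replicate 1 it was -0.13 ± 0.39 (SE; limma adjusted p = 0.942). A second ID annotated SOX9, ENSDARG00000003293, was listed at 0.703 to 4.01 fpm in dgat1a tumours and 0.661 to 1.85 fpm in egfp tumours, with a log2 fold change of 0.39 (limma adjusted p = 0.719), and of 0.18 without egfp replicate 1 (limma adjusted p = 0.945).

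snai2 encodes a zinc finger repressor that in vertebrate crest takes part in the epithelial-mesenchymal transition. It measured 115.4, 94.1, 235.3, 134.0 and 158.1 fpm in dgat1a replicates 1 to 5, and 133.8, 129.8 and 89.2 fpm in egfp replicates 1 to 3. dgat1a replicates 3 and 5 were highest and dgat1a replicate 4 lay barely above the highest egfp tumour, while dgat1a replicates 1 and 2 lay within the egfp range. The log2 fold change was 0.28 ± 0.30 (SE; limma adjusted p = 0.676), and the 95% interval ran from 0.758-fold to 1.93-fold. Without dgat1a replicate 3 it was 0.09 (limma adjusted p = 0.886), and without egfp replicate 3 also 0.09 (limma adjusted p = 0.909).

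**Figure D2:**
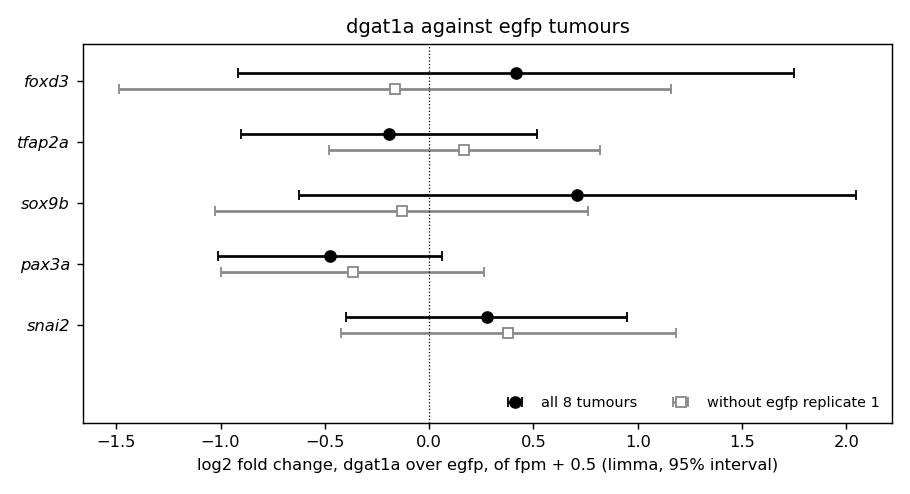
Log2 fold change, dgat1a over egfp, of fpm + 0.5 for each gene with its limma 95% interval, from all 8 tumours (filled circles) and without egfp replicate 1 (open squares). Every interval crosses 0, and the point estimate moves across 0 for foxd3, tfap2a and sox9b when that tumour is left out.

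The authors' deposited table gave the same outcome for these genes. In the authors' deposited table the log2 fold changes were 0.07 for foxd3, -0.26 for tfap2a, 0.34 for sox9b, -0.45 for pax3a and 0.30 for snai2. The adjusted p-values in the authors' deposited table were 0.965, 0.739, 0.778, 0.379 and 0.685 in the same order, where 3.67% of all listed genes were under 0.05. DESeq2 run on the recovered reads called 5.14% of tested genes and edgeR 0.0178%, and neither called any of the 5. The smallest adjusted p of either was that of pax3a, at 0.359 with DESeq2 and 0.361 with the edgeR quasi-likelihood test.

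How far each regulator varied from tumour to tumour was described next. The SD over all 8 tumours was 0.96 log2 units for sox9b and 0.94 for foxd3, larger than in 84.4% and 83.8% of the tested genes. It was 0.45 for tfap2a, 0.44 for snai2 and 0.39 for pax3a, where the median tested gene had 0.49. The spread of sox9b rested on egfp replicate 1: over the other 7 tumours its SD was 0.45 log2 units, larger than in 49.4% of tested genes. For foxd3 the SD over those 7 tumours was 0.80, larger than in 83.5%. foxd3 therefore varied widely in both sets of tumours, whereas tfap2a without that library had an SD of 0.32, larger than in 24.3% of tested genes.

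Each tumour carried its own combination of the 5 regulators. egfp replicate 1 had the highest tfap2a and pax3a of the 8 and the lowest foxd3 and sox9b. egfp replicate 3 had the highest foxd3, the second-highest pax3a and the lowest snai2. dgat1a replicate 3 had the highest snai2, the highest pax3a of its group and the lowest sox9b of its group. dgat1a replicate 2 had the highest sox9b of the 8 and the lowest pax3a.

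Whether the regulators varied together was tested over the 8 tumours with Pearson's r, using exact permutation tests and Benjamini-Hochberg adjustment over the 10 pairs. No pair had an adjusted p under 0.05. The pair with the smallest p-value was sox9b with pax3a, with an r of -0.712 (exact permutation p = 0.0196, adjusted p = 0.196) and a Spearman's rho of -0.643 (exact permutation p = 0.0962, adjusted p = 0.935). Without egfp replicate 1 and dgat1a replicate 3, the tumours farthest from the median of sox9b, its r was -0.358 (exact permutation p = 0.525). Leaving out extreme tumours narrows the range, so this cannot show whether the relation rested on them. With 1 tumour left out at a time the r was -0.870 to -0.620. The lowest adjusted exact permutation p of any alternative was 0.117. tfap2a with sox9b had an r of -0.720 (exact permutation p = 0.0561, adjusted p = 0.281) and a Spearman's rho of -0.310 (exact permutation p = 0.462). Its r was 0.051 without egfp replicates 1 and 2 (exact permutation p = 0.924), and -0.132 without egfp replicate 1 alone (exact permutation p = 0.812).

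Other relations changed with the tumours included. foxd3 with tfap2a had an r of -0.052 over all 8 tumours (exact permutation p = 0.904; Spearman's rho 0.119, exact permutation p = 0.793). Without egfp replicate 1 the r was 0.801 (exact permutation p = 0.0423), which did not pass adjustment over the 10 pairs (adjusted p = 0.423). pax3a with snai2 had an r of 0.232 (exact permutation p = 0.599; Spearman's rho 0.167, exact permutation p = 0.703), and without egfp replicates 1 and 3, the tumours farthest from the median of pax3a, 0.934 (exact permutation p = 0.0125). Both genes were high in dgat1a replicate 3. Over the 7 tumours other than that one, with egfp replicates 1 and 3 kept, the r was -0.105. That set puts back the egfp tumours left out for 0.934, so it cannot show whether 0.934 rested on dgat1a replicate 3. Among the dgat1a tumours alone, replicate 3 included, the r was 0.960. The other dgat1a tumours had the same order in both genes, replicate 5 highest, then replicates 4, 1 and 2. In that order pax3a was at 149.4, 141.5, 133.4 and 125.6 fpm and snai2 at 158.1, 134.0, 115.4 and 94.1 fpm. egfp replicate 2 fell out of this order, with pax3a at 160.2 fpm and snai2 at 129.8 fpm. The remaining 6 pairs had r between -0.284 and 0.441 over all 8 tumours, with adjusted exact permutation p-values of 0.878 to 0.989.

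**Figure D3:**
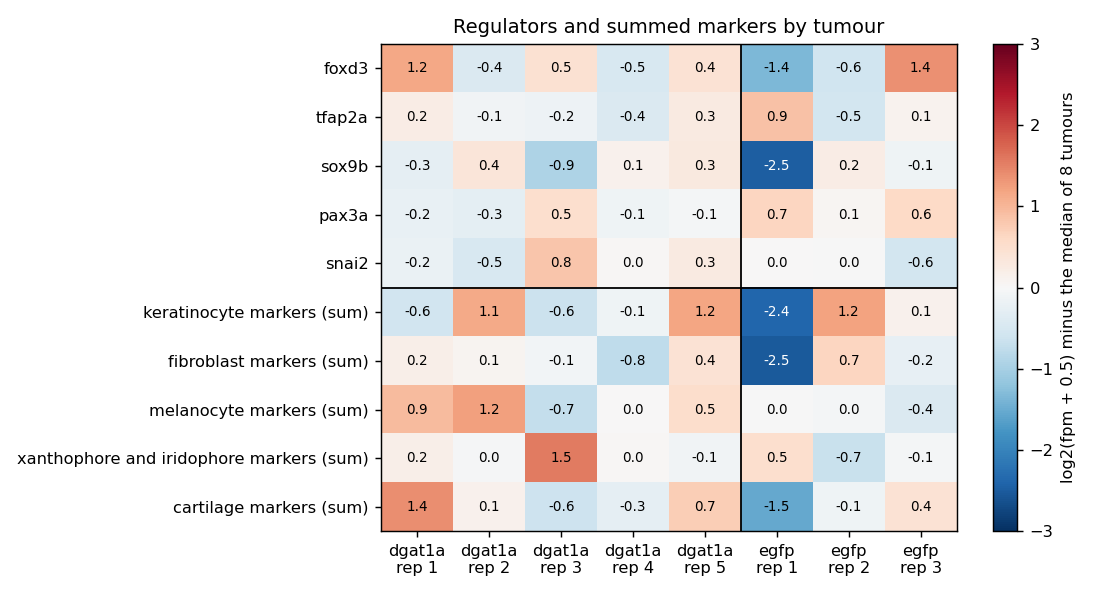
Log2(fpm + 0.5) of the 5 genes and of summed marker lists in each tumour, as the difference from the median of the 8 tumours; red is above and blue below the median, and dgat1a tumours are left of the line. egfp replicate 1 is low for foxd3, sox9b and the keratinocyte, fibroblast and cartilage marker sums and high for tfap2a and pax3a.

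The tumours were dissected tissue, so markers of other cell types were set beside the regulators. Summed keratinocyte markers (8 IDs, such as the epidermal keratins krt4 and krt5) were 1406, 4626, 1348, 1927 and 4722 fpm in dgat1a replicates 1 to 5, and 398.7, 4822 and 2271 fpm in egfp replicates 1 to 3. Their order over the tumours was close to that of sox9b, with egfp replicate 1 lowest, dgat1a replicates 3 and 1 next, and dgat1a replicates 2 and 5 and egfp replicate 2 highest. Over the 8 tumours the log2 values of sox9b and of this sum had an r of 0.927 (exact permutation p = 0.00057, adjusted p = 0.0257 over 45 relations) and a Spearman's rho of 0.881 (exact permutation p = 0.00724, adjusted p = 0.326). Without egfp replicates 1 and 2 the r was 0.817 (exact permutation p = 0.0347), and without egfp replicate 1 alone 0.823 (exact permutation p = 0.0081, adjusted p = 0.250 over the same relations).

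This was the only 1 of the 45 relations between the 5 genes and 9 marker lists with an adjusted p under 0.05, and it was looked for after the data had been seen. Leaving out 1 tumour at a time, sox9b with keratinocyte markers had r of 0.823 to 0.956, but passed the adjustment only without egfp replicate 3 (adjusted exact permutation p = 0.0357); with any other single tumour left out the adjusted p was 0.0536 to 0.250. The part of epidermal cells in the sox9b level was not tested. Summed fibroblast markers (8 IDs, collagen I genes among them) were 887.9 to 2060 fpm in dgat1a tumours and 265.6 to 2388 fpm in egfp tumours, with the lowest value again in egfp replicate 1. sox9b with this sum had an r of 0.851 (exact permutation p = 0.0373, adjusted p = 0.335; Spearman's rho 0.571, exact permutation p = 0.151), and without egfp replicate 1 an r of 0.211 (exact permutation p = 0.628).

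**Figure D4:**
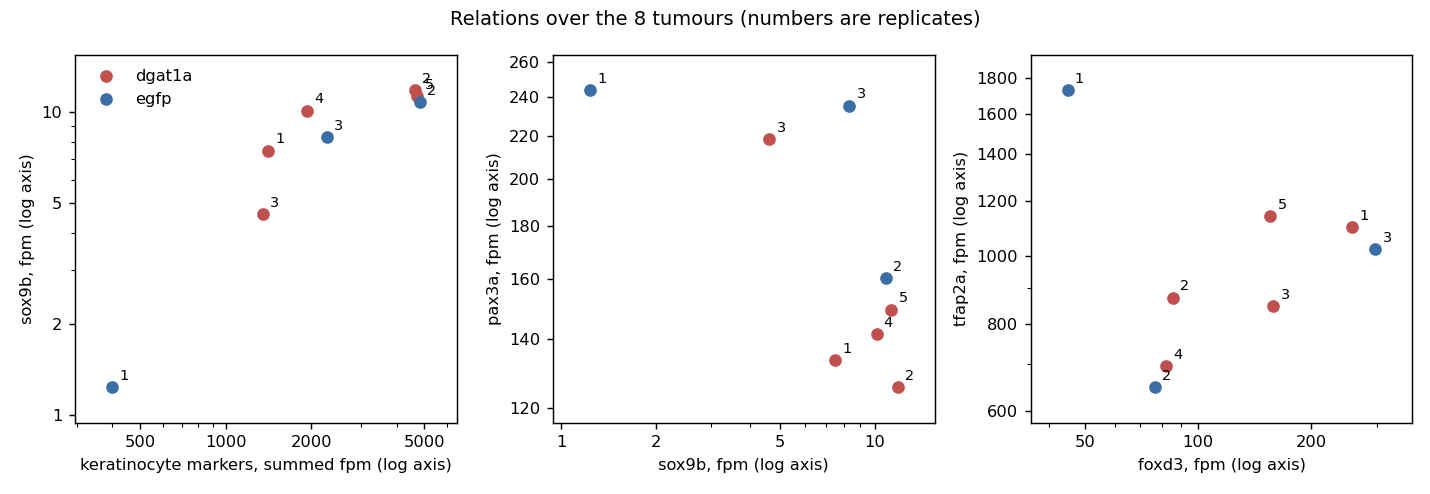
Levels in fpm on log axes, 1 point per tumour with its replicate number: sox9b against summed keratinocyte markers (left), pax3a against sox9b (middle) and tfap2a against foxd3 (right). sox9b and the keratinocyte sum have a similar order (Spearman's rho 0.881, exact permutation adjusted p = 0.326), and Pearson's r of their log2 values is 0.927. In the right panel egfp replicate 1 lies apart from the other 7 tumours.

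For pax3a the marker list with the smallest p-value was that of melanocytes (13 IDs), summed to 16205, 19716, 5167, 8556 and 12171 fpm in dgat1a replicates 1 to 5, and 8361, 8172 and 6222 fpm in egfp replicates 1 to 3. pax3a was lowest in the tumours with the highest sums, dgat1a replicates 2 and 1. pmela alone gave 13275 and 9225 fpm of these sums in that order, so both were mostly pmela. The r was -0.801 (exact permutation p = 0.0213, adjusted p = 0.317; Spearman's rho -0.810, exact permutation p = 0.0218) and fell short of the threshold. Without dgat1a replicates 2 and 1 it was -0.640 (exact permutation p = 0.225). Without egfp replicate 1 it was -0.880 (exact permutation p = 0.0111), which did not pass adjustment over the marker relations either.

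Muscle and satellite cell markers, relevant because pax3a is also a muscle precursor gene, were summed to 8.26 to 491.0 fpm in dgat1a tumours and 4.32 to 12.0 fpm in egfp tumours. The myogenic factors MYOD1 and MYF5 were each listed at 0 in at least 1 tumour. pax3a was low in the tumour with the highest muscle sum, dgat1a replicate 1. In dgat1a replicate 3, where pax3a was highest of its group, the muscle sum was 114.9 fpm. Over the 8 tumours pax3a and this sum had an r of -0.378 (exact permutation p = 0.360, adjusted p = 0.624). Without dgat1a replicates 1 and 5 it was -0.018 (exact permutation p = 0.982). The part of muscle cells in the pax3a level was not tested. Cartilage markers, relevant to sox9b, were summed to 14.8 to 60.7 fpm in dgat1a tumours and 7.58 to 31.3 fpm in egfp tumours. sox9b with this sum had an r of 0.704 (exact permutation p = 0.0614, adjusted p = 0.402), and 0.217 without egfp replicate 1. foxd3 with this sum had an r of 0.766 (exact permutation p = 0.0242, adjusted p = 0.317), and 0.595 without egfp replicate 1. tfap2a with summed Schwann cell markers had an r of -0.761 (exact permutation p = 0.0282, adjusted p = 0.317), and -0.724 without that tumour. No gene of the 9 marker lists was called by limma or by the edgeR quasi-likelihood test. Of all tested genes these called 0.0534% and 0.0178%, so no call is near that background. DESeq2 called pmela, of 13 tested melanocyte IDs, and ckma and ckmb, of 6 tested muscle IDs. All had higher means in dgat1a tumours, and DESeq2 called 5.14% of all tested genes. The median log2 fold changes of the lists were 0.41 for melanocyte, 0.28 for xanthophore and iridophore, 0.60 for Schwann cell, 0.45 for cartilage, 2.52 for muscle, 1.29 for keratinocyte, 0.58 for immune and -0.08 for endothelial markers. When egfp replicate 1 was left out, the keratinocyte median was -0.39, the Schwann cell median -0.36, the cartilage median 0.14, the endothelial median -0.27, the melanocyte median 0.87 and the xanthophore and iridophore median 0.51. In the edgeR quasi-likelihood test the muscle median was 4.10, the keratinocyte median 0.25, the Schwann cell median 0.23 and the xanthophore and iridophore median 0.48.

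snai2 and pax3a were high together in dgat1a replicate 3, and that tumour differed from the rest of its group in pigment cell genes. Summed xanthophore and iridophore markers (12 IDs) were 832.3, 721.7, 2150, 746.8 and 679.9 fpm in dgat1a replicates 1 to 5, and 1036, 463.1 and 706.4 fpm in egfp replicates 1 to 3. The sum pools xanthophore and iridophore genes, and these did not all rise in dgat1a replicate 3. ALX4 ENSDARG00000088332 (839.4 fpm), pnp4a (330.9 fpm), TFEC (195.6 fpm) and ltk (156.0 fpm) were highest there of the 8 tumours. By contrast, gch2 (113.1 fpm) and csf1ra (72.4 fpm) lay within the range of the other dgat1a tumours, and aox5 was listed at 0. The melanocyte marker sum of dgat1a replicate 3 was the lowest of the 8. crestin, a transcript that marks neural crest and melanoma precursors in zebrafish, measured 25.3, 17.9, 1159, 2.37 and 2.33 fpm in dgat1a replicates 1 to 5, and 73.7, 30.1 and 23.2 fpm in egfp replicates 1 to 3. In no other tumour did crestin exceed 73.7 fpm. Its log2 fold change was -0.82 ± 1.72 (SE; limma adjusted p = 0.840), and 2.53 in the edgeR quasi-likelihood test (adjusted p = 0.549), so its direction depended on the test. With egfp replicate 1 left out the limma value was -0.33 (adjusted p = 0.974). snai2 with the xanthophore and iridophore sum had an r of 0.667 (exact permutation p = 0.0878, adjusted p = 0.402; Spearman's rho 0.333, exact permutation p = 0.428), and 0.196 without dgat1a replicate 3 and egfp replicate 2 (exact permutation p = 0.749).

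The wider neural crest network was read from a list of 32 other symbols, of which 31 matched 33 IDs and 29 IDs were tested. None rose and none fell at a limma adjusted p under 0.05, and the edgeR quasi-likelihood test called none. Before adjustment 2 of the 29 were under 0.05, ID3 and a PAX7 ID, both higher in dgat1a tumours, where 15.0% of all tested genes were. The median log2 fold change of the list was 0.01, against 0.04 for all tested genes. DESeq2 called 2 of the 29, ID3 and the second PAX3 ID, against 5.14% of all tested genes.

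SOX10, the factor that activates mitfa in the crest, had a log2 fold change of 0.01 ± 0.22 (SE; limma adjusted p = 0.983), which was 0.14 without egfp replicate 1, and an SD over the 8 tumours larger than in 10.8% of tested genes. ID3, an inhibitor of basic helix-loop-helix factors, measured 10.7, 17.8, 22.1, 20.2 and 19.9 fpm in dgat1a replicates 1 to 5, and 4.40, 9.12 and 8.26 fpm in egfp replicates 1 to 3. Its groups did not overlap, as in 10.4% of all tested genes, and its log2 fold change was 1.28 ± 0.32 (SE; limma adjusted p = 0.197). A PAX7 ID, ENSDARG00000100398, measured 2.67 to 13.4 fpm in dgat1a tumours and 0.264 to 3.67 fpm in egfp tumours, with a log2 fold change of 2.18 (limma adjusted p = 0.217). PAX7 is a relative of PAX3 that in zebrafish marks xanthophores, and it is also in the muscle and satellite cell list, whose sum is given above.

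The second PAX3 ID, ENSDARG00000028348, measured 0.396, 0.042, 1.93, 0.401 and 0.573 fpm in dgat1a replicates 1 to 5, and 28.1, 5.86 and 0.154 fpm in egfp replicates 1 to 3. Its log2 fold change was -2.26 ± 1.04 (SE; limma adjusted p = 0.344), and -0.99 without egfp replicate 1. The snail and twist relatives of the epithelial-mesenchymal transition did not pass either. snai1a had a log2 fold change of 0.64 (limma adjusted p = 0.438) and twist1a of 0.87 (limma adjusted p = 0.464), and with egfp replicate 1 left out they were 0.29 and 0.47 (limma adjusted p = 0.845 and 0.834). In egfp replicate 1 twist1a was at 0.132 fpm, the 3-read floor of that library, and snai1b was under that floor, at 0.088 fpm. The log2 fold changes of snai1b, twist2, twist1b and twist3 were 1.25, 0.89, -0.18 and -0.27. Without egfp replicate 1 they were 0.68, 0.17, -0.36 and -0.37.

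**Figure D5:**
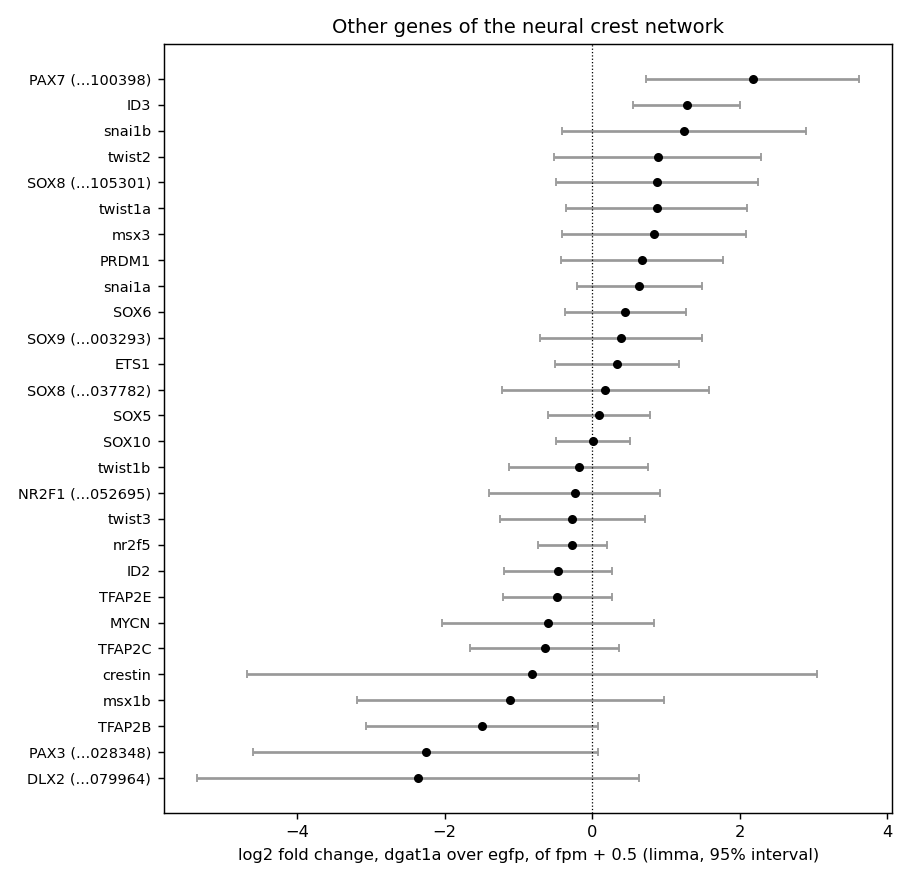
Log2 fold change, dgat1a over egfp, of fpm + 0.5 with its limma 95% interval for 28 of the 29 tested IDs of the wider neural crest list, ordered by value and named as the annotation gives them, with the last digits of the ID where a symbol has several. PAX7 and ID3 have intervals above 0 (unadjusted p of 0.00759 and 0.00296), and none of the 29 passed adjustment.

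egfp replicate 1 also stood out for other genes of this list, named here after their values were seen. A DLX2 ID, ENSDARG00000079964, measured 0.542 to 57.4 fpm in dgat1a tumours, and 419.8, 16.0 and 22.3 fpm in egfp replicates 1 to 3. TFAP2C, an AP-2 relative of tfap2a, measured 426.6 to 1527 fpm in dgat1a tumours, and 1678, 640.7 and 905.5 fpm in egfp replicates 1 to 3, so that its highest value fell in the same tumour as that of tfap2a.

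Among genes of the epithelial-mesenchymal transition (9 symbols, 10 IDs, all tested) none passed in limma, edgeR or DESeq2. The median log2 fold change was 0.51 (0.78 without egfp replicate 1), against 0.04 for all tested genes. The lowest p-values were those of both fibronectin IDs, annotated FN1, and of VIM ENSDARG00000010008. The fitted ratio of dgat1a to egfp tumours was 7.32-fold for FN1 ENSDARG00000006526 and 2.82-fold for FN1 ENSDARG00000019815 (limma adjusted p = 0.240 and 0.317), and 3.35-fold for VIM (limma adjusted p = 0.415). With egfp replicate 1 left out, the FN1 log2 fold changes were 1.82 and 0.68 (limma adjusted p = 0.570 and 0.706). The other listed IDs were mixed. Log2 fold changes were -0.43 for zeb1a, 0.14 for ZEB1, 0.09 for zeb2a, 1.22 for ZEB2 and -0.09 for CDH2. They were 0.38 for cdh1, also a listed keratinocyte marker, and 0.63 for VIM ENSDARG00000044501. Without egfp replicate 1 these were -0.27, 0.29, -0.25, 2.39, -1.28, 0.89 and 0.88 in the same order. The fibroblast marker list, which shares no ID with the transition list, had a median of 0.77 and none of 8 called, and a median of -0.06 without egfp replicate 1. Fibronectin is also made by fibroblasts, and their part in these values was not tested.

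MITF is the regulator of melanocyte fate that acts downstream of the crest factors. ENSDARG00000003732, annotated MITF, measured 1565, 684.9, 733.0, 1192 and 792.7 fpm in dgat1a replicates 1 to 5, and 1807, 2851 and 1609 fpm in egfp replicates 1 to 3. The groups did not overlap, as in 10.4% of all tested genes, and the log2 fold change of -1.10 ± 0.32 (SE) did not pass (limma adjusted p = 0.216). Of the 13 melanocyte IDs, 2 had groups that did not overlap, and the other, KIT, went the opposite way. KIT measured 518.3 to 995.5 fpm in dgat1a tumours and 210.4 to 498.9 fpm in egfp tumours (log2 fold change 0.97, limma adjusted p = 0.246). The strain is mitfa mutant and the vector carries a mitfa rescue gene, and reads of the rescue gene and of the endogenous locus were not told apart.

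The genes whose pattern over the 8 tumours was most like each regulator were named by Pearson's r of log2(fpm + 0.5) among tested genes with a symbol, as a description. For foxd3 they were TRAPPC13 (r = 0.970) and WRN (0.961). For tfap2a they were MYO7A (0.957) and ndnfl (0.952), and for sox9b B4GALNT3 (0.986) and LRP1 (0.982). For pax3a they were COMMD7 (0.985) and SS18 (0.977), and for snai2 SRSF7 (0.980) and CYBC1 (0.957). An r of at least 0.9 was reached by 22 genes for foxd3, 19 for tfap2a, 261 for sox9b, 96 for pax3a and 23 for snai2, out of 16852 compared. How many unrelated genes would reach that r over 8 tumours was not tested, so the counts and names show no link to a regulator. The points share the 8 libraries, and without egfp replicate 1 the 10 named genes had r of 0.898 to 0.980. These genes were picked for their high r over the same tumours, so this range cannot show that the likeness holds without egfp replicate 1.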

How the data were processed

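The members, gene lists and tests were chosen with earlier results of these data known. The authors deposited 3 tables of 22416 Ensembl IDs: a per-million signal per tumour (fpm), variance-stabilised log2 values, and their own comparison with a mean signal, log2 fold changes, a score (fold change over its standard error) and p-values. The submitters' processing notes name STAR 2.5.3, featureCounts 1.6.2, DESeq2 1.14.1 and GRCz11; how reads shared by near-identical genes, such as SOX9 or PAX3 copies, were counted and whether counting used strand is not given in the sources used here. In every fpm column 100% of values were whole multiples of 1 read (tolerance 0.01), so reads were recovered.

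The test was that of limma 3.58.1 under R 4.3.3 (lmFit, eBayes with intensity trend), two-sided, on log2(fpm + 0.5) of the 16853 genes averaging 1 fpm or more, with Benjamini-Hochberg adjustment over all of them. A log2 fold change on this scale understates changes of low genes. edgeR 4.0.16 and DESeq2 1.42.0 on recovered reads, other pseudocounts, filters, scalings, variance models, a block for the replicate number, and fits lacking 1 tumour each were alternatives. Any 2 libraries differed by a chi-square of at least 79.3 per degree of freedom and count as separate samples.

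Symbols of IDs came from a name table that covers 21017 of the IDs and often gives the symbol of the mammalian counterpart; a listed zebrafish name was matched to its own symbol or else to that symbol without its a or b, and all IDs of it were taken. The names of the 5 regulators follow the rule that chose them; the name table gives FOXD3, TFAP2A, SOX9, PAX3 and snai2 for the same IDs. Named genes were the 5 regulators, the 3 genes of the crest list and of the transition list with the smallest p-values, their closest partners (SOX10, MITF, crestin, SOX9, PAX7, snai1a, twist1a), and the 2 most similar genes of each regulator. DLX2, TFAP2C and single cell type markers, such as pmela, ckma and ckmb, were named after their values were seen. So were the other snail and twist genes and the other genes of the transition list. Relations with marker sums were likewise chosen then. The values of 1 gene of the crest list are not reported here.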

Additional observations from a re-analysis of the deposited data

Results flagged for a closer look

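Among the 5 dgat1a tumours, pax3a in replicate 3 (218.7 fpm) lay far from the others (125.6 to 149.4 fpm): its gap to the nearest tumour was 0.744 of the whole range of the group. On the log2(fpm + 0.5) scale the share was 0.687, which was not past the limit used for 5 values. The other 4 regulators had no such tumour among the 5 on either scale. By chance about 5% of groups show such a gap. snai2 was highest in the same tumour, with a gap of 0.546 of its range in fpm.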

How the results depend on the processing

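No alternative brought any of the 5 regulators past the threshold; over the 21 alternatives of each, the lowest adjusted p (limma, edgeR or DESeq2) was 0.311 for foxd3, 0.343 for tfap2a, 0.320 for sox9b, 0.218 for pax3a and 0.543 for snai2. Leaving out 1 tumour at a time gave log2 fold changes of -0.16 to 1.19 for foxd3, -0.54 to 0.17 for tfap2a, -0.13 to 1.22 for sox9b, -0.67 to -0.37 for pax3a and 0.09 to 0.42 for snai2. The sign turned without egfp replicate 1 for foxd3, tfap2a and sox9b; tfap2a also turned with quantile normalization (0.058); the cause was not tested. The count over all genes was 9, and 3 with the edgeR quasi-likelihood test, 866 with DESeq2, 4 with dgat1a replicates 1 to 3 only, 0 with the replicate block (2080 at an unadjusted p under 0.05) and 5 to 55 when 1 tumour was left out. With the replicate block the log2 fold changes of the regulators were 0.59, -0.17, 0.51, -0.44 and 0.24 for foxd3, tfap2a, sox9b, pax3a and snai2. The labels give no batch, so the numbers were not taken as pairs. Deviations of same-numbered tumours correlated at 0.240, 0.073 and 0.007 across genes. Here dgat1a replicates 1 and 2 correlated best with their own number and dgat1a replicate 3 with another, which does not settle whether the numbers are pairs.

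Leaving out 1 tumour turned the sign of 6 of the 10 relations between regulators: r ranged from -0.239 to 0.801 for foxd3 with tfap2a, -0.497 to 0.484 for foxd3 with sox9b, -0.384 to 0.487 for foxd3 with pax3a, -0.383 to 0.244 for foxd3 with snai2, -0.134 to 0.109 for tfap2a with snai2 and -0.105 to 0.631 for pax3a with snai2. No pair passed in any alternative. The count of relations with marker lists was 1, and 0 to 2 when a tumour was left out (0 without any tumour but egfp replicate 3). Without egfp replicate 3 it was 2, sox9b with keratinocyte markers and another relation, which is not named here. The median log2 fold changes of marker lists moved widely when 1 tumour was left out: 0.21 to 1.06 for melanocyte, 0.11 to 0.51 for xanthophore and iridophore, -0.36 to 1.28 for Schwann cell, 0.14 to 0.55 for cartilage, 1.996 to 2.93 for muscle, -0.39 to 2.54 for keratinocyte, 0.44 to 0.71 for immune, -0.27 to 0.14 for endothelial and -0.06 to 1.34 for fibroblast markers. Those of the crest and transition lists were -0.07 to 0.12 and 0.40 to 0.78. The fixed lists had 0 genes called in limma, at a pseudocount of 1, in edgeR and without each tumour. Depth limits the second PAX3 ID, which is at or under 1.93 fpm in 6 of the 8 tumours.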
